A study of Homo sapiens with 8 samples.

Results

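The 50 genes described here act in G2 and mitosis: 8 mitotic kinases, 8 genes of the kinetochore and its checkpoint, 3 partners of Aurora B in the chromosomal passenger complex, 8 kinesins, 9 genes of the spindle and of cytokinesis, 6 entry phosphatases and anaphase regulators, 4 condensin subunits, and 4 genes of mitotic chromatin and transcription. They were chosen by gene symbol from the 19124 genes of the deposited tables, and all 50 had a row in each of the 8 libraries. The libraries come from HCT116 and HT29, both human colorectal cancer cell lines. Each line was transfected with siRNA against RPL9, RPL17 or RPL27, which encode proteins of the large ribosomal subunit, or with a negative control siRNA (NC), at 15 nM with lipofectamine 2000, and total RNA was taken after 48 h. Each line has 1 library per siRNA, so no siRNA has a replicate within a line. In the tests of siRNAs over both lines the 2 lines stand in for replicates, and where a line is tested by itself, or the lines are compared in their response, its 3 RPL siRNAs do. The p-values measure only the spread between these libraries.

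Mitotic genes are transcribed late in the cell cycle and their messages are scarce in cells that are not cycling, so their summed level is widely used as a readout of proliferation. CDK1 and PLK1 drive entry into mitosis, Aurora B and the kinetochore proteins check the attachment of chromosomes to microtubules, condensin compacts the chromosomes, and the anaphase-promoting complex with its activator CDC20 starts their separation. Many promoters of these genes carry CCAAT boxes, which NF-Y binds, and a CHR element (cell cycle genes homology region) near the start site, which complexes built on MuvB bind. In bulk RNA, fewer cells in G2 and mitosis and fewer messages in each such cell cannot be told apart.

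The deposited values are RPKM (reads per kilobase of transcript per M, or mega, mapped reads). The values times transcript length gave sums of 16.9 to 21.6 M per library, or 1.67 to 1.74 M once each gene was divided by its exon number, where RPKM over whole transcripts can reach 1 M at most. Levels are therefore compared below between libraries for 1 gene, and not between genes. Library depth was only estimated, at 20.7 to 26.5 M reads, and no counting interval was computed. The targeted genes stood at 31.9% (RPL9), 38.5% (RPL17) and 26.7% (RPL27) of the NC level in HCT116 and at 14.7%, 18.7% and 13.7% in HT29. Their NC levels were 17432, 25956 and 7649 RPKM in HCT116 and 35729, 43950 and 16205 RPKM in HT29. Their knockdown levels were 5560, 10004 and 2045 RPKM in HCT116 and 5245, 8240 and 2214 RPKM in HT29. The HT29 percentages rest on the NC library described in the next paragraph and are not length-corrected. A deeper knockdown in HT29 cannot be read from them. The summed RPKM of 9 epithelial markers was 19412 to 48517, with CDX1 under 1 RPKM in all libraries. Markers of other cell types summed to 252 to 439 RPKM for fibroblasts, 9.71 to 104 RPKM for leukocytes and 0.504 to 10.1 RPKM for endothelium, and their part in the results was not tested.

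The HT29 NC library stands apart. Over 11467 genes, its deviation (log2) from the rest ran with transcript length at a Spearman rho of -0.61, and that of each remaining library at 0.15 to 0.29. The median of this deviation was 0.74 in the 10% of genes with the shortest transcripts and -1.42 in the 10% with the longest. Long transcripts thus read low and short ones high in the library to which every HT29 knockdown is compared. Each comparison with NC is therefore also given with the dependence on transcript length taken out of each library ("length-corrected") and without the HT29 NC library, in which case the contrast equals the HCT116 difference and rests on the HCT116 NC library alone.

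A CCAAT box and a CHR element were looked for in the RefSeq promoters (GRCh38.p14, 250 bases before to 50 after the start), which matched 42 of the 50 genes. HMGB2 and PBK were among the genes without a match. Only the first listed promoter of each gene was searched. The letters searched were CCAAT for the box and, for the CHR element, TTTGAA or its palindromic form TTCGAA, on both strands. A CCAAT box was found in 30 of the 42 (71.4%), against 36.5% of 13960 promoters of measured genes, and a CHR in 32 (76.2%), against 13.2%. Both were found in 24 (57.1%), against 5.54%, and in 2 genes a CHR and a CCAAT share a base. In 25 genes a CHR begins between position -60 and position 30 from the start, which was not counted over all promoters. A match is a description of letters and not of binding. The windows below run from 150 bases before to 30 after the start, 5' to 3' on the gene's strand, with the matches in capitals, and show the forms found: one of each in PLK1 (chr16:23678739-23678918, plus strand), CHR and CCAAT sharing a base in CDCA8 (chr1:37692366-37692545, plus strand) and MKI67 (chr10:128126394-128126573, minus strand), adjacent CHR elements in ANLN (chr7:36389712-36389891, plus strand), a CHR alone in NUF2 (chr1:163321804-163321983, plus strand) and a CCAAT alone in STMN1 (chr1:25906390-25906569, minus strand).
PLK1: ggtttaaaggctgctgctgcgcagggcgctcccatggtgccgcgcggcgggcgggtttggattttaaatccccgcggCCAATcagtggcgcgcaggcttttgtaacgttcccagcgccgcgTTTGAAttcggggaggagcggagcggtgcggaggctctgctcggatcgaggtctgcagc
CDCA8: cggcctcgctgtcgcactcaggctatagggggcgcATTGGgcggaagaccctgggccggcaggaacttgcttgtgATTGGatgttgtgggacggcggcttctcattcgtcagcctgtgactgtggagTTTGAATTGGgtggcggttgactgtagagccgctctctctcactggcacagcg
MKI67: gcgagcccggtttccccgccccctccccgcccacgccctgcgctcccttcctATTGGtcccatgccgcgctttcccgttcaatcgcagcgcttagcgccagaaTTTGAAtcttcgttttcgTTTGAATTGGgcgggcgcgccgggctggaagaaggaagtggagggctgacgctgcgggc
ANLN: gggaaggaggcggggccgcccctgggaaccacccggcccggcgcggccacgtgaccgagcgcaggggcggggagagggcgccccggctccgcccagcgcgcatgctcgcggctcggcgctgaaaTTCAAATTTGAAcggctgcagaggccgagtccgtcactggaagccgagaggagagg
NUF2: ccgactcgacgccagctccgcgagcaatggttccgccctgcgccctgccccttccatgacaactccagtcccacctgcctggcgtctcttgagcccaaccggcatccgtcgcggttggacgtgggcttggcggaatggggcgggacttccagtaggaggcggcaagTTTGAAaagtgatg
STMN1: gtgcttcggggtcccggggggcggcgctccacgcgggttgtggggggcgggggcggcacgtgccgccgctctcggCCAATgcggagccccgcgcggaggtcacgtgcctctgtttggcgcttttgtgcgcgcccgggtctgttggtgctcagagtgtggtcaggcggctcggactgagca

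HMGB2, PBK, STMN1 and NUF2 fell past the threshold of the test over both lines. HMGB2, a chromatin protein that associates with mitotic chromosomes, had 889, 1195 and 769 RPKM in HCT116 cells with RPL9, RPL17 and RPL27 siRNA, against 2762 RPKM with NC, and 867, 991 and 698 RPKM in HT29 cells, against 3051 RPKM with NC. PBK, a mitotic serine/threonine kinase, stood at 433 (RPL9 siRNA), 580.1 (RPL17) and 418 (RPL27) RPKM in HCT116 against 1317 RPKM with NC, and at 281 (RPL9), 298 (RPL17) and 272 (RPL27) RPKM in HT29 against 1007 RPKM with NC. STMN1, the microtubule-destabilizing protein stathmin, gave 746, 1089.5 and 682 RPKM with RPL9, RPL17 and RPL27 siRNA and 2151 RPKM with NC in HCT116, and 711, 892 and 625 RPKM with the same siRNAs and 2435 RPKM with NC in HT29. All 6 RPL siRNA libraries lay below the NC library of their line for each of these genes. NUF2, a subunit of the NDC80 complex that holds microtubules at the kinetochore, had 281, 372 and 295 RPKM in HCT116 cells with RPL9, RPL17 and RPL27 siRNA, against 895 RPKM with NC, and 269, 314 and 312 RPKM in HT29 cells, against 788 RPKM with NC. For NUF2 the RPL siRNA libraries of the 2 lines overlapped, between 269 and 372 RPKM, and both NC libraries were well above them. The transcripts of HMGB2, PBK, STMN1 and NUF2 have 1175, 2118, 948 and 1842 bases. Length correction put their HT29 mean differences from NC at -1.39, -1.80, -1.19 and -1.26, where they had been -1.85, -1.82, -1.73 and -1.40. In the limma fit with terms for line and siRNA on log2(RPKM + 1), over 14281 genes, the mean of the 3 RPL siRNAs minus NC was -1.71 ± 0.14 (SE) for HMGB2 (adjusted p = 0.031), -1.65 ± 0.17 for PBK (0.0483), -1.56 ± 0.15 for STMN1 (0.0483) and -1.46 ± 0.15 for NUF2 (0.049).

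These 4 were the only mitotic genes past the threshold, where 0.063% of all tested genes were called lower (9 genes). Another 32 of the 50 had an unadjusted p under 0.05 without passing. The share of all tested genes at this unadjusted cut is not given, here or in the paragraphs below. The median of the 50 was -0.77, against 0.10 over all tested genes, and 47 were below 0. Only ECT2 (0.23), MKI67 (0.13) and SMC2 (0.05) were above 0, none near the threshold (adjusted p of 0.74, 0.90 and 0.94). With 1 RPL siRNA library left out, whichever it was, 0 mitotic genes passed (30 to 35 at an unadjusted p under 0.05). After length correction 37 of the 50 were called lower (3.31% of all tested genes), all 50 were below 0, and the median was -0.995. Without the HT29 NC library the median was -1.05. Without the HCT116 NC library, when the contrast equals the HT29 difference, the values ran from -1.87 in PTTG1 to 1.47 in MKI67. In both of these fits NC is a single library, assumed to vary as the RPL siRNA libraries do. The same HCT116 difference fitted on the 4 HCT116 libraries alone gave 0 called. The 4 genes above passed with all 8 libraries, without the HT29 NC library and with the length trend removed, and CENPA and FOXM1 in none of these fits. The calls of the 4 with all 8 libraries stand close to the threshold: HMGB2 alone passed with a pseudocount of 0.1 or 5, with robust variances or with no cell line term, and none of them did with median-centring (adjusted p = 0.0559 for each) or with no filter on low values (0.0754 for each).

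**Figure D1:**
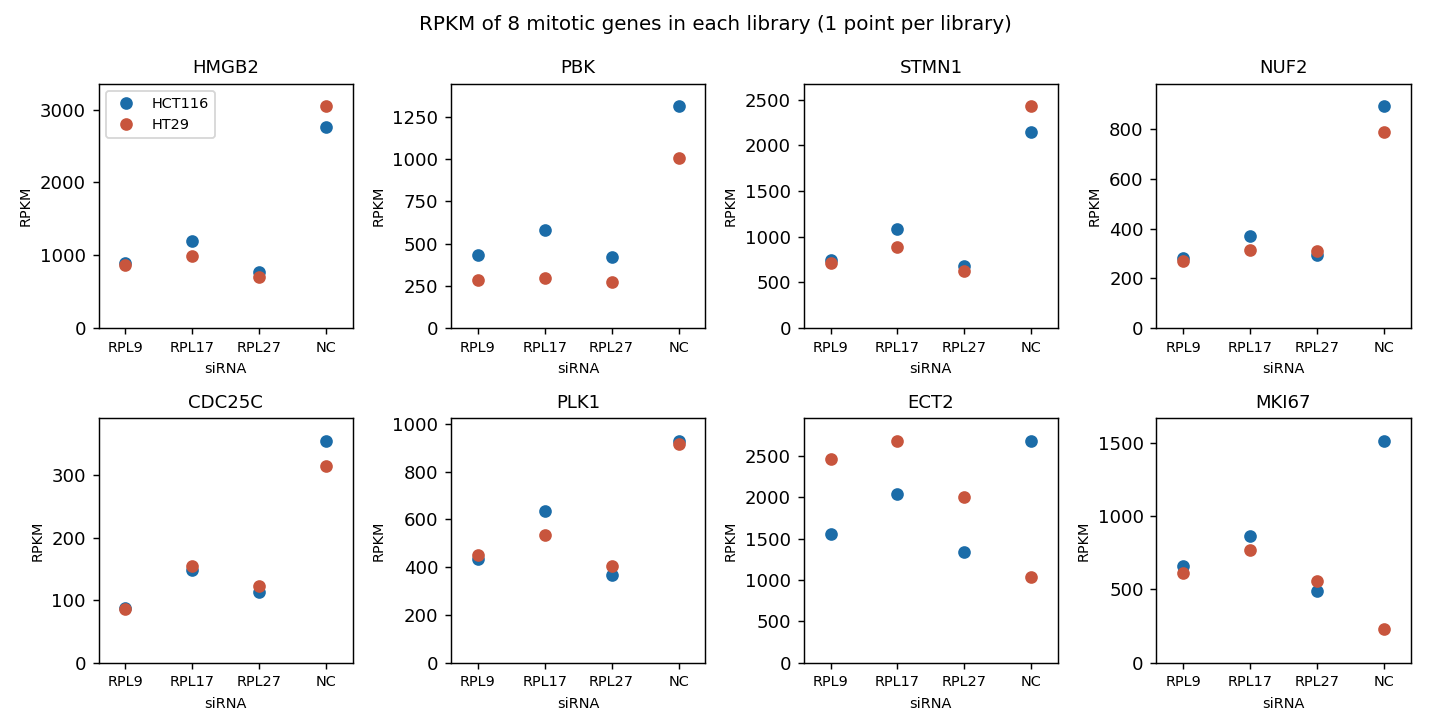
RPKM of 8 mitotic genes (vertical axes, from 0) by siRNA (horizontal axes), with 1 point per library, HCT116 in blue and HT29 in red. In HMGB2, PBK, STMN1, NUF2, CDC25C and PLK1 the NC points lie above all RPL siRNA points in both lines, while in ECT2 and MKI67 the HT29 NC point lies below the HT29 RPL siRNA points.

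In HCT116 cells all 50 genes were below NC in all 3 knockdowns, as were 32.4% of all tested genes. With RPL27 siRNA 47 of the 50 fell by at least 1 on the log2 scale (6.93% of all tested genes), with a median of -1.32. With RPL9 siRNA 38 did (8.26%), with a median of -1.15, and with RPL17 siRNA 8 did (6.58%), with a median of -0.71. These are single libraries, so these falls have no replicate check. In HT29 cells 35 of the 50 were below NC in all 3 knockdowns, against 32.7% of all tested genes, and 9 were above NC in all 3, against 46.6%. Falls of at least 1 were seen in 17 genes with RPL9 siRNA (12.3%), 11 with RPL17 siRNA (9.75%) and 21 with RPL27 siRNA (9.94%), and the medians were -0.57, -0.38 and -0.88. Rises of at least 1 were seen in 2 genes with RPL9 siRNA, MKI67 and ECT2 (22.8% of all tested genes), in 3 with RPL17 siRNA, these and SMC2 (23%), and in MKI67 alone with RPL27 siRNA (23.2%). After length correction the HT29 counts of falls were 21, 16 and 31 with RPL9, RPL17 and RPL27 siRNA, against 13.1%, 11.1% and 10.9% of all tested genes. The medians of the 50 were then -0.82, -0.63 and -1.14. None of the 50 rose by 1, against 14%, 12.6% and 12.4% of all tested genes.

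Ranked by fall in HCT116 cells with RPL9 siRNA, CDC25C (-2.01), NUF2 (-1.67), HMGB2 (-1.63), PBK (-1.60) and ASPM (-1.56) came first, and CDC20 (-0.63), UBE2C (-0.69) and SMC2 (-0.74) last. With RPL17 siRNA the order began with NUF2 (-1.27), CDC25C (-1.25), HMGB2 (-1.21), PBK (-1.18) and SPC25 (-1.11), and ended with UBE2C (-0.21), FOXM1 (-0.31) and CDC20 (-0.36). With RPL27 siRNA CENPF (-1.93), HMGB2 (-1.84), KIF14 (-1.83), KIF20A (-1.82) and ANLN (-1.73) led, and CDC25B (-0.61), UBE2C (-0.82) and FOXM1 (-0.93) fell least. So HMGB2 was among the first 3 under every siRNA in HCT116, and UBE2C among the last 3.

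In HT29 cells the order with RPL9 siRNA began with PTTG1 (-1.89), CDC25C (-1.87), PBK (-1.84), HMGB2 (-1.81) and STMN1 (-1.77). With RPL17 siRNA it was PBK (-1.76), PTTG1 (-1.62), HMGB2 (-1.62), STMN1 (-1.45) and CDC20 (-1.38), and with RPL27 siRNA HMGB2 (-2.13), PTTG1 (-2.09), STMN1 (-1.96), PBK (-1.88) and AURKB (-1.82). MKI67, ECT2 and SMC2 were the highest 3 under each siRNA, at 1.41, 1.25 and 0.97 with RPL9 siRNA, 1.74, 1.37 and 1.02 with RPL17 siRNA, and 1.27, 0.95 and 0.68 with RPL27 siRNA. Length correction changed this order: ESPL1, MAD2L1, NCAPG and PBK then stood among the first 5 under each siRNA, and ECT2 was then the highest, at 0.72, 0.78 and 0.37 with RPL9, RPL17 and RPL27 siRNA. Lengths come from a later annotation than the authors', in which MAD2L1 has 5468 bases, and a length that differs from the one the authors used would move a corrected value.

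**Figure D2:**
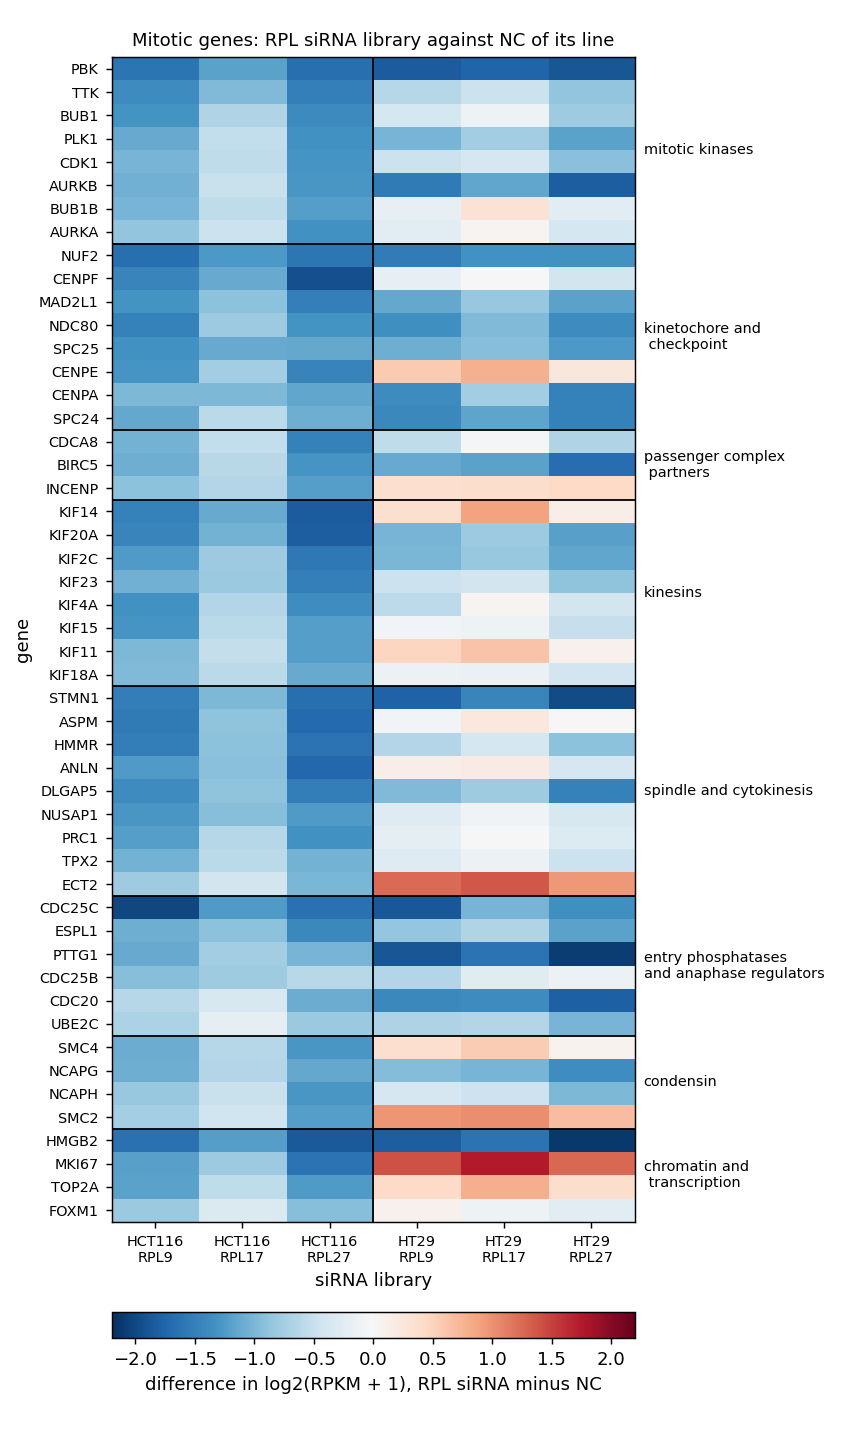
Difference in log2(RPKM + 1) between each RPL siRNA library and the NC library of its line (colour) for the 50 mitotic genes (rows, by group and then by the HCT116 mean), with 1 column per library. Every HCT116 cell is blue, below 0, while in HT29 a set of genes that includes MKI67, ECT2, SMC2 and CENPE is red, above 0.

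Among the mitotic kinases all 8 were below NC on average in both lines, with a median mean difference of -0.98 in HCT116 and -0.62 in HT29 (-0.90 length-corrected). PBK passed in the fit of all 8 libraries, and 6 of the 8 after length correction. CDK1, the kinase that drives entry into mitosis, stood at 514 (RPL9 siRNA), 709.5 (RPL17) and 429 (RPL27) RPKM in HCT116 against 1051 RPKM with NC, and at 463 (RPL9), 498 (RPL17) and 342 (RPL27) RPKM in HT29 against 645 RPKM with NC. PLK1, needed for spindle assembly and centrosome maturation, gave 433, 637 and 369 RPKM with RPL9, RPL17 and RPL27 siRNA and 930.4 RPKM with NC in HCT116, and 451, 537 and 406 RPKM with the same siRNAs and 916 RPKM with NC in HT29. Both lay below NC in every knockdown, and neither passed, at -0.78 ± 0.17 (SE; adjusted p = 0.0935, limma) for CDK1 and -0.99 ± 0.15 (0.0686) for PLK1. AURKB, the catalytic subunit of the chromosomal passenger complex, had 314, 465 and 269 RPKM in HCT116 cells with RPL9, RPL17 and RPL27 siRNA, against 653 RPKM with NC, and 285, 380.4 and 237 RPKM in HT29 cells, against 839 RPKM with NC. Its NC library was higher in HT29 than in HCT116 while its RPL siRNA libraries were lower there. BUB1B, the checkpoint protein BubR1, stood at 827 (RPL9 siRNA), 1142 (RPL17) and 726 (RPL27) RPKM in HCT116 against 1674 RPKM with NC, and at 745 (RPL9), 1045 (RPL17) and 717 (RPL27) RPKM in HT29 against 841 RPKM with NC. In HT29 the BUB1B library of RPL17 siRNA was above NC and the other two below.

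The kinetochore and checkpoint genes had the lowest median of any group but spindle and cytokinesis in HCT116 (-1.20), stood at -1.15 in HT29 and at -1.25 there after length correction, and 7 of the 8 were called after length correction. NDC80, which gives the microtubule-binding NDC80 complex its name, gave 331, 538 and 376 RPKM with RPL9, RPL17 and RPL27 siRNA and 934 RPKM with NC in HCT116, and 388, 501 and 377 RPKM with the same siRNAs and 988 RPKM with NC in HT29. SPC25, a subunit of the same complex, had 158, 185 and 183 RPKM in HCT116 cells with RPL9, RPL17 and RPL27 siRNA, against 401 RPKM with NC, and 184, 202 and 162 RPKM in HT29 cells, against 389 RPKM with NC. The 4 subunits NDC80, NUF2, SPC24 and SPC25 all stood below NC in each of the 6 knockdowns. CENPE, a kinesin of the kinetochore that carries chromosomes to the spindle equator, stood at 389 (RPL9 siRNA), 564 (RPL17) and 344 (RPL27) RPKM in HCT116 against 953 RPKM with NC, and at 464 (RPL9), 539 (RPL17) and 372 (RPL27) RPKM in HT29 against 311 RPKM with NC. CENPF, a large coiled-coil protein that joins the kinetochore late in G2, gave 456, 581 and 329 RPKM with RPL9, RPL17 and RPL27 siRNA and 1255 RPKM with NC in HCT116, and 501, 566 and 426 RPKM with the same siRNAs and 567 RPKM with NC in HT29. Both have long transcripts (8612 and 10307 bases). Length correction put CENPE in HT29 at -0.75, where it had been 0.54, and CENPF at -1.59, where it had been -0.20.

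The partners of Aurora B in the passenger complex were below NC in HCT116 by a median of -0.99, and in HT29 by -0.41 (-0.51 length-corrected). BIRC5, the survivin subunit that docks the complex at centromeres, had 257, 355 and 219 RPKM in HCT116 cells with RPL9, RPL17 and RPL27 siRNA, against 541 RPKM with NC, and 254, 243 and 172 RPKM in HT29 cells, against 549 RPKM with NC. INCENP, the scaffold that activates Aurora B, stood at 402 (RPL9 siRNA), 481 (RPL17) and 324 (RPL27) RPKM in HCT116 against 753 RPKM with NC, and at 397 (RPL9), 404 (RPL17) and 419 (RPL27) RPKM in HT29 against 308 RPKM with NC. CDCA8, the borealin subunit, gave 412, 584 and 302 RPKM with RPL9, RPL17 and RPL27 siRNA and 847 RPKM with NC in HCT116, and 342, 498 and 320.5 RPKM with the same siRNAs and 505 RPKM with NC in HT29. BIRC5 was lower in every knockdown and INCENP lower in HCT116 and above NC in HT29. CDCA8 in HT29 differed from NC by only -0.02 with RPL17 siRNA. BIRC5 (-1.19, adjusted p = 0.0232) and CDCA8 (-0.75, 0.0455) passed in the length-corrected limma fit and INCENP (-0.49, 0.19) did not.

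Of the 8 kinesins, all were below NC in HCT116, with a median of -1.12, and in HT29 the median was -0.27, or -0.92 after length correction. None passed with all 8 libraries and 7 of the 8 after length correction. KIF20A, a kinesin of the central spindle needed for cytokinesis, had 461, 615 and 359 RPKM in HCT116 cells with RPL9, RPL17 and RPL27 siRNA, against 1268 RPKM with NC, and 391, 456 and 347 RPKM in HT29 cells, against 794 RPKM with NC. KIF23, the motor of the centralspindlin complex, stood at 936 (RPL9 siRNA), 1101 (RPL17) and 687 (RPL27) RPKM in HCT116 against 1942 RPKM with NC, and at 886 (RPL9), 926 (RPL17) and 662 (RPL27) RPKM in HT29 against 1227 RPKM with NC. KIF4A, a chromosome-bound motor, gave 461, 748 and 453 RPKM with RPL9, RPL17 and RPL27 siRNA and 1168 RPKM with NC in HCT116, and 496, 773 and 557 RPKM with the same siRNAs and 739.6 RPKM with NC in HT29. KIF20A and KIF23 were below NC in all 6 knockdowns, and KIF4A in 5 of them, the exception being RPL17 siRNA in HT29. KIF11, the motor that pushes spindle poles apart, had 487, 675 and 419 RPKM in HCT116 cells with RPL9, RPL17 and RPL27 siRNA, against 968 RPKM with NC, and 605, 677 and 463 RPKM in HT29 cells, against 436 RPKM with NC. KIF14, a motor that recruits the citron kinase to the midbody, stood at 334 (RPL9 siRNA), 437 (RPL17) and 263 (RPL27) RPKM in HCT116 against 937 RPKM with NC, and at 248 (RPL9), 359 (RPL17) and 214 (RPL27) RPKM in HT29 against 194 RPKM with NC. Both were above NC in all 3 HT29 knockdowns and below NC in all HCT116 knockdowns. Their corrected HT29 means were -0.36 for KIF11 and -0.71 for KIF14, the first of which was the only kinesin not called after correction (-0.61 over both lines, adjusted p = 0.0688, limma).

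The spindle and cytokinesis genes had the lowest median in HCT116 (-1.27) and stood at -0.24 in HT29, or -0.76 length-corrected. ANLN, the scaffold anillin of the contractile ring, gave 1472, 1852 and 1055 RPKM with RPL9, RPL17 and RPL27 siRNA and 3497 RPKM with NC in HCT116, and 1497, 1520.2 and 1041 RPKM with the same siRNAs and 1347 RPKM with NC in HT29. ASPM, which acts at spindle poles, had 223, 358 and 201 RPKM in HCT116 cells with RPL9, RPL17 and RPL27 siRNA, against 659.6 RPKM with NC, and 304, 372 and 313 RPKM in HT29 cells, against 316 RPKM with NC. ECT2, the exchange factor that activates RhoA for furrowing, stood at 1561 (RPL9 siRNA), 2042 (RPL17) and 1343 (RPL27) RPKM in HCT116 against 2687 RPKM with NC, and at 2471 (RPL9), 2688 (RPL17) and 2001 (RPL27) RPKM in HT29 against 1038 RPKM with NC. In ECT2 the HT29 NC library was the lowest of all 8, while the HT29 knockdown libraries overlapped or exceeded the HCT116 ones. ECT2 was the mitotic gene least changed over both lines after length correction, at -0.03 ± 0.28 (SE; adjusted p = 0.95, limma). Of the 9 genes, 6 were called after correction.

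The entry phosphatases and anaphase regulators included some of the largest falls and some of the smallest. CDC25C, a phosphatase that removes the inhibitory phosphates from CDK1, gave 87.5, 148 and 113 RPKM with RPL9, RPL17 and RPL27 siRNA and 355 RPKM with NC in HCT116, and 85.2, 154 and 123 RPKM with the same siRNAs and 315 RPKM with NC in HT29. CDC25B, the phosphatase that starts that activation, had 1194, 1332 and 1509.9 RPKM in HCT116 cells with RPL9, RPL17 and RPL27 siRNA, against 2298 RPKM with NC, and 1059, 1367 and 1515 RPKM in HT29 cells, against 1652 RPKM with NC. In both lines CDC25C was lowest with RPL9 siRNA, and CDC25B was lowest with RPL9 siRNA and highest of the knockdowns with RPL27 siRNA. CDC20, the activator of the anaphase-promoting complex, stood at 1379.5 (RPL9 siRNA), 1667 (RPL17) and 1008 (RPL27) RPKM in HCT116 against 2136 RPKM with NC, and at 959 (RPL9), 989.6 (RPL17) and 743 (RPL27) RPKM in HT29 against 2579.6 RPKM with NC. UBE2C, the ubiquitin-conjugating enzyme of that complex, gave 669, 932 and 612 RPKM with RPL9, RPL17 and RPL27 siRNA and 1078 RPKM with NC in HCT116, and 994, 1026 and 784 RPKM with the same siRNAs and 1600.2 RPKM with NC in HT29. PTTG1, the separase inhibitor securin, had 510.1, 648 and 541 RPKM in HCT116 cells with RPL9, RPL17 and RPL27 siRNA, against 1104 RPKM with NC, and 576, 693 and 501 RPKM in HT29 cells, against 2139 RPKM with NC. For these 3 the HT29 NC library was the highest of all 8, and their transcripts are short (1675, 850 and 753 bases). Length correction moved the HT29 mean of UBE2C to -0.22, where it had been -0.78, and in the corrected limma fit CDC20 (-0.998, adjusted p = 0.0293) and PTTG1 (-1.16, 0.0146) passed and UBE2C (-0.42, 0.133) did not.

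The 4 condensin members had a median of -0.91 in HCT116 and of -0.13 in HT29 (-0.67 length-corrected). SMC2, a core ATPase of condensin, stood at 332 (RPL9 siRNA), 409.6 (RPL17) and 241 (RPL27) RPKM in HCT116 against 557 RPKM with NC, and at 445 (RPL9), 462 (RPL17) and 365 (RPL27) RPKM in HT29 against 227 RPKM with NC. NCAPG, a non-SMC subunit of condensin I, gave 818, 1099 and 786 RPKM with RPL9, RPL17 and RPL27 siRNA and 1724 RPKM with NC in HCT116, and 732, 693 and 551 RPKM with the same siRNAs and 1417 RPKM with NC in HT29. NCAPH, the kleisin that closes the condensin I ring, had 447, 567 and 330.3 RPKM in HCT116 cells with RPL9, RPL17 and RPL27 siRNA, against 799.6 RPKM with NC, and 507, 474 and 328 RPKM in HT29 cells, against 651 RPKM with NC. NCAPG and NCAPH were lower in every knockdown of both lines, while SMC2 was lower in HCT116 and above NC in all 3 HT29 knockdowns. After length correction NCAPG (-1.37, adjusted p = 0.0282, limma), NCAPH (-0.81, 0.0324) and SMC4 (-0.76, 0.0342) passed and SMC2 (-0.23, 0.57) did not.

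Of the chromatin and transcription genes HMGB2 fell in both lines. The other 3 fell in every HCT116 knockdown, with means of -0.99 for TOP2A, -1.21 for MKI67 and -0.68 for FOXM1. Their HT29 mean differences were near or above 0 as deposited, at 0.54, 1.47 and -0.08. After length correction these HT29 values were -0.42 for TOP2A, 0.02 for MKI67 and -0.45 for FOXM1. TOP2A, the topoisomerase that untangles sister chromatids, stood at 1527 (RPL9 siRNA), 2349.8 (RPL17) and 1456 (RPL27) RPKM in HCT116 against 3454 RPKM with NC, and at 2466 (RPL9), 3207 (RPL17) and 2425 (RPL27) RPKM in HT29 against 1845 RPKM with NC. MKI67, which coats mitotic chromosomes and is the Ki-67 proliferation antigen, gave 663, 868 and 492 RPKM with RPL9, RPL17 and RPL27 siRNA and 1518 RPKM with NC in HCT116, and 611, 768 and 556 RPKM with the same siRNAs and 229.8 RPKM with NC in HT29. FOXM1, a transcription factor that activates late cell cycle genes, had 163, 231 and 151 RPKM in HCT116 cells with RPL9, RPL17 and RPL27 siRNA, against 288 RPKM with NC, and 218, 188 and 173 RPKM in HT29 cells, against 204 RPKM with NC. The MKI67 ranges of the knockdowns overlapped, at 492 to 868 RPKM in HCT116 and 556 to 768 RPKM in HT29, while the NC libraries were far apart. None of these 3 passed after length correction (adjusted p of 0.0513, 0.204 and 0.121, limma).

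**Figure D3:**
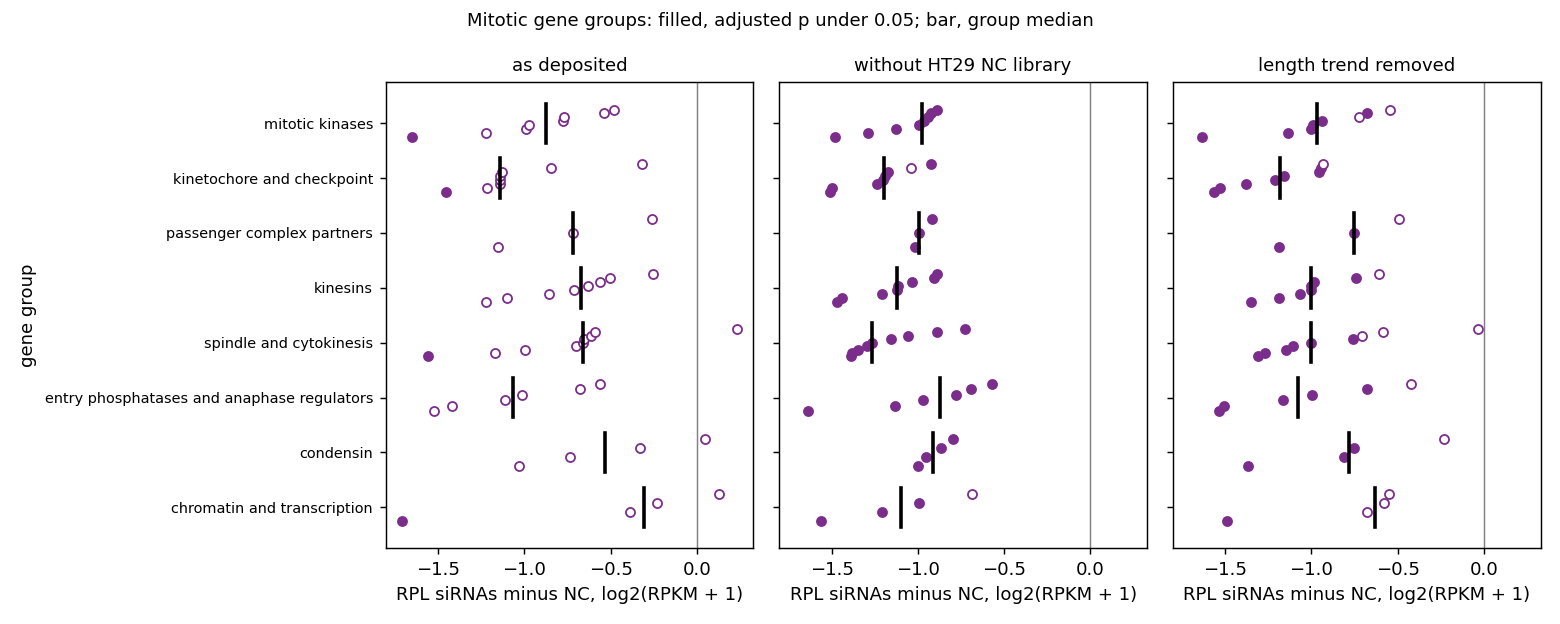
Mean of the 3 RPL siRNAs minus NC in log2(RPKM + 1) (horizontal axis) for the genes of each mitotic group (vertical axis), in the fit of all 8 libraries, without the HT29 NC library, and with the length trend removed. Filled points passed an adjusted p of 0.05 and bars are group medians. The number of filled points is 4 with all 8 libraries, where 0.063% of all tested genes were called lower. It is 37 with the length trend removed, where 3.31% were. Without the HT29 NC library NC is a single library, so the filled points of that panel are not counted here.

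Each siRNA set against NC on its own gave 0 called mitotic genes with all 8 libraries in limma, where 0.007% of all tested genes were called with RPL9 siRNA, 0.014% with RPL17 siRNA and 0% with RPL27 siRNA. At an unadjusted p under 0.05, 32 of the 50 were lower with RPL9 siRNA, 24 with RPL17 siRNA and 38 with RPL27 siRNA, and the medians were -0.81, -0.52 and -1.12. The shares just given are at the adjusted threshold and do not apply to these unadjusted counts. After length correction 25 mitotic genes were called lower with RPL9 siRNA (1.73% of all tested genes), 3 with RPL17 siRNA (0.0846%) and 31 with RPL27 siRNA (1.18%). The 3 genes called under RPL17 siRNA were PBK (-1.45, adjusted p = 0.0437), CENPF (-1.26, 0.0469) and HMGB2 (-1.19, 0.0386). Under RPL9 siRNA CDC25C was lowest, at -1.92 ± 0.19 (SE; 0.0165), and under RPL27 siRNA CENPF, at -1.88 ± 0.17 (0.019). The 3 comparisons share the NC libraries.

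The knockdowns were also set against each other without the NC libraries, in a limma fit of the 6 RPL siRNA libraries with a term for line (14217 genes tested). Of the 50 genes 10 were lower with RPL27 siRNA than with RPL17 siRNA, where 0.675% of all tested genes were called lower. They were CDCA8 (-0.79 ± 0.12, SE; adjusted p = 0.0478), KIF14 (-0.74 ± 0.10; 0.0432), AURKB (-0.73 ± 0.10; 0.0421), the checkpoint kinase BUB1 (-0.71 ± 0.11; 0.0491) and ANLN (-0.68 ± 0.09; 0.0414). The other 5 were BUB1B (-0.60), STMN1 (-0.59), KIF23 (-0.58), HMGB2 (-0.57) and the condensin ATPase SMC4 (-0.56), with adjusted p of 0.0359 to 0.0492. Of the 50 genes 49 were below 0, with a median of -0.55 against -0.00 over all tested genes. CDC25B alone was above 0, at 0.16 ± 0.08 (0.348), and it was so in both lines (0.18 in HCT116 and 0.15 in HT29). The adjusted p of the 10 stand close to the threshold, and after length correction 7 passed. The calls also depend on which libraries give the spread. With the NC libraries in the fit 0 of the 10 passed, and none came near. Their unadjusted p then ran from 0.0174 in CDCA8 to 0.205 in KIF14 (limma), with an SE of 0.24 and 0.52 for these genes.

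No mitotic gene passed between RPL9 and RPL17 siRNA (0.232% of all tested genes called lower), although all 50 were below 0 with a median of -0.31 and 32 had an unadjusted p under 0.05. CDC25C (-0.80 ± 0.14, SE; adjusted p = 0.0695, limma), KIF4A (-0.67 ± 0.10; 0.0522) and NDC80 (-0.53 ± 0.11; 0.0924) differed most, and NCAPH (-0.12), INCENP (-0.14) and FOXM1 (-0.14) least. Nor did any pass between RPL27 and RPL9 siRNA (0.893%), where 44 were below 0 with a median of -0.23 and 19 had an unadjusted p under 0.05. NCAPH (-0.53 ± 0.12; 0.0986), ANLN (-0.50 ± 0.09; 0.0655) and KIF23 (-0.43 ± 0.08; 0.0691) were lowest there, and CDC25C (0.45 ± 0.14; 0.157), CDC25B (0.43 ± 0.08; 0.0653) and NUF2 (0.14 ± 0.12; 0.563) highest.

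The RPL17 siRNA library was the highest of the 3 knockdowns for 48 of the 50 genes in HCT116 and 42 in HT29, against 32.5% and 33.7% of all tested genes. The RPL27 siRNA library was the lowest for 41 and 44, against 33.1% and 33.6%. Across the 50 genes, the difference between RPL27 and RPL17 siRNA in HT29 correlated with that in HCT116 with r = 0.45 and rho = 0.41, over genes that share the same 4 libraries. RPL17 was also the target with the most message left, at 38.5% of NC in HCT116 and 18.7% in HT29, and RPL27 the one with the least, and the part of knockdown depth in this order was not tested. The HT29 percentages rest on the NC library that stands apart by transcript length.

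**Figure D4:**
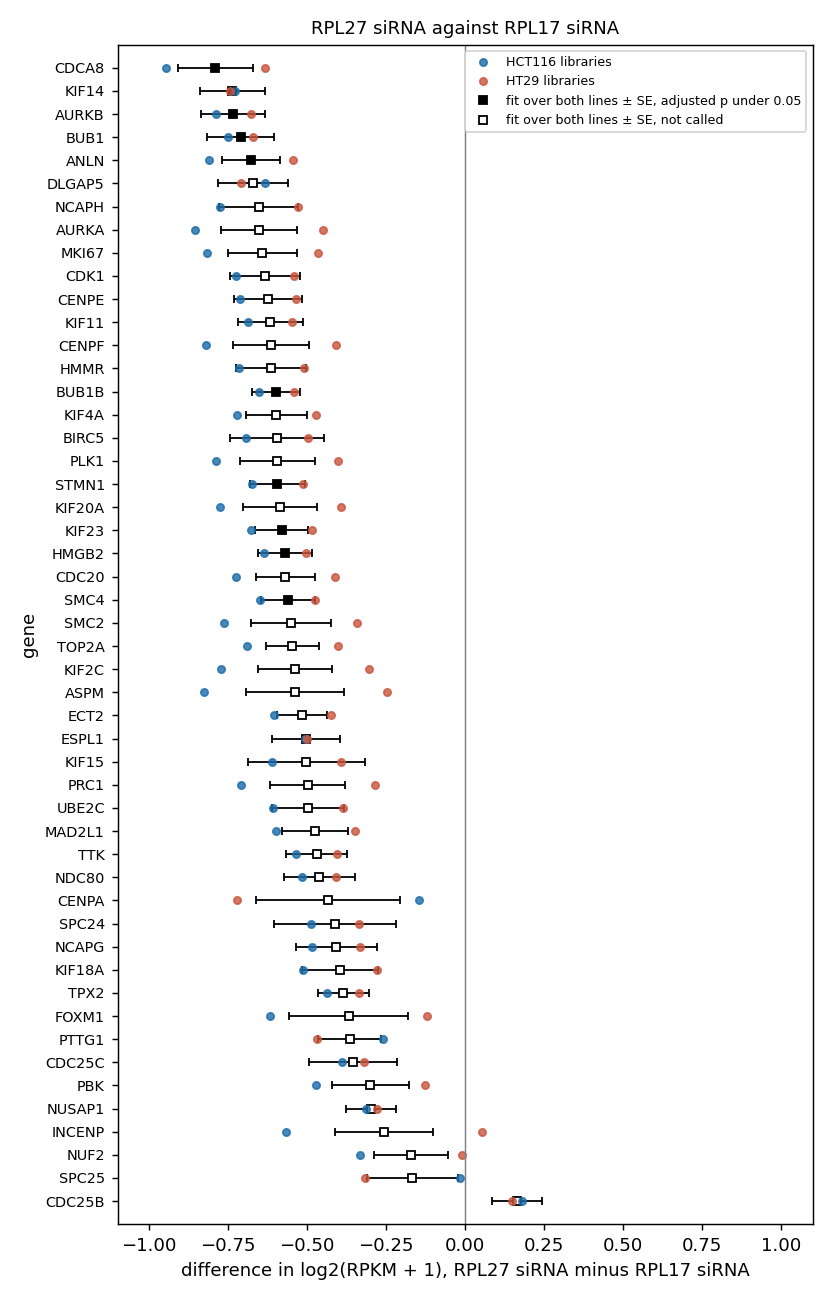
Difference in log2(RPKM + 1) between RPL27 siRNA and RPL17 siRNA (horizontal axis) for the 50 mitotic genes (vertical axis), as single libraries of HCT116 (blue) and HT29 (red) and as the limma estimate ± SE (squares, filled where the adjusted p was under 0.05). All estimates except that of CDC25B lie below 0, and the 10 filled squares lie between -0.79 and -0.56.

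The response differed between lines for 10 of the 50 mitotic genes, a share near that of all tested genes, of which 16.8% were called in the same direction. In a limma fit that lets the effect of any RPL siRNA vary by line, the HCT116 difference minus the HT29 difference was -2.68 ± 0.43 (SE) for MKI67 (adjusted p = 0.00435) and -1.92 ± 0.34 for ECT2 (0.00666). KIF14, CENPE, SMC2, TOP2A, ASPM, SMC4, INCENP and NUSAP1 also passed, all toward a lower value in HCT116. The shortest transcript among the 10 is that of NUSAP1, a spindle-assembly protein, at 2256 bases, and the others have 3964 bases or more. After length correction 0 of the 50 passed (7.55% of all tested genes did in either direction), with ECT2 nearest at -1.31 ± 0.35 (0.0621). NUSAP1 kept nearly its size, at -0.87 ± 0.26 (0.0808) after correction and -0.92 before it. Of the other 8, MKI67 stood at -1.21 and SMC2 at -1.05 after correction, and the rest lay between -0.77 and -0.37. The 3 siRNAs of a line stand as replicates here, and each line has 1 NC library.

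Across the 50 genes the HT29 mean difference followed transcript length with r = 0.72 and rho = 0.73, and the HCT116 one had r = -0.12 and rho = -0.05. The genes share their libraries, so these are descriptions. The 20 genes with transcripts under 2500 bases had a median of -1.03 in HCT116 and -1.28 in HT29, and the 16 with over 4000 bases had -1.12 in HCT116 and 0.20 in HT29. After correction the medians in HT29 were -1.12 for the short and -0.76 for the long genes, and 47 of the 50 were below 0, the exceptions being ECT2 (0.62), SMC2 (0.29) and MKI67 (0.02). The correlation of the HT29 with the HCT116 mean differences was r = 0.27 before correction and r = 0.51 after it (rho = 0.26 and 0.51).

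**Figure D5:**
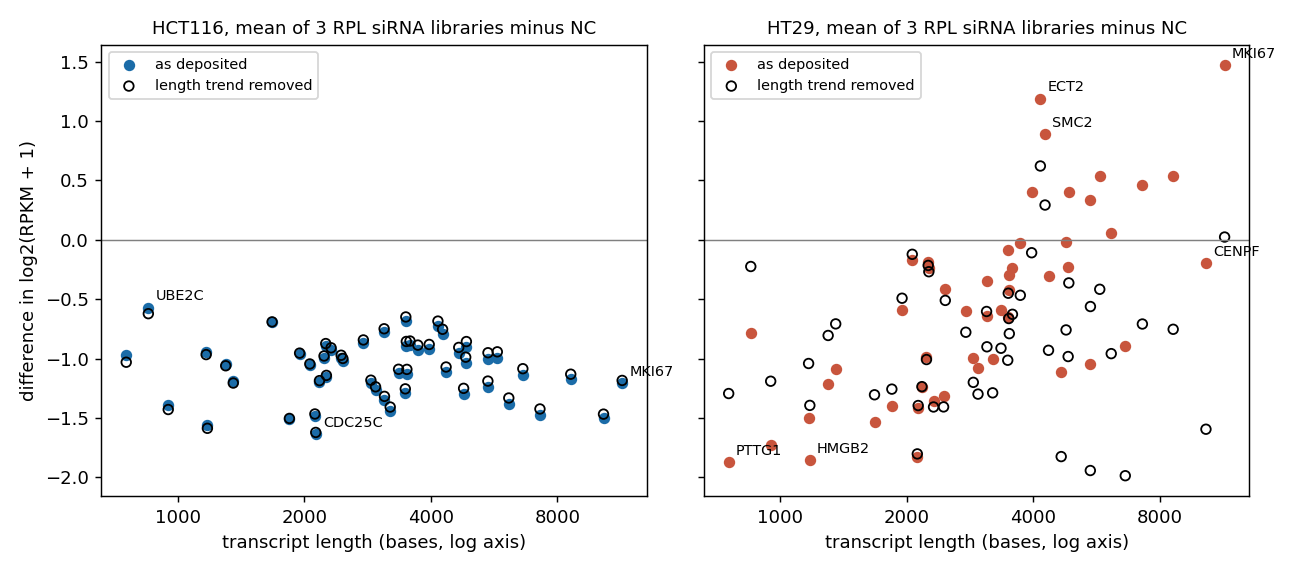
Mean of the 3 RPL siRNA libraries minus NC in log2(RPKM + 1) (vertical axis) against transcript length (log axis) for the 50 mitotic genes in HCT116 and HT29, as deposited (filled) and with the length trend taken out (open). HCT116 points lie between -1.64 and -0.57 at all lengths, while in HT29 the filled points climb with length to 1.47 in MKI67.

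Between the lines, over all siRNAs, 0 of the 50 genes differed past the threshold in limma (3.61% of all tested genes did), 6 had an unadjusted p under 0.05, and PBK was nearest, at 0.65 ± 0.15 (SE; adjusted p = 0.0848). PBK passed after length correction (0.75, 0.0205). Without the HT29 NC library the line difference rests on the 6 knockdown libraries, and 12 of the 50 passed, about the share of all tested genes that did (22.9%). TOP2A (-0.63 ± 0.07; 0.00309), ECT2 (-0.54 ± 0.06; 0.00394), AURKA, SMC2 and UBE2C were then lower in HCT116 than in HT29. PBK (0.73 ± 0.10; 0.00541), CDC20 (0.57 ± 0.08; 0.00545), NCAPG, KIF14, CDK1, DLGAP5 and MAD2L1 were higher in HCT116. In ECT2, for instance, the HCT116 knockdowns had 1343 to 2042 RPKM and the HT29 knockdowns 2001 to 2688 RPKM.

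No member is a cohesin subunit, and a list of 13 genes of cohesin, the ring that holds sister chromatids together, and its regulators was measured beside them. None was called with all 8 libraries in limma, and their median was 0.47, against -0.53 for the 4 condensin members. After length correction it was -0.07, with 0 called, and the condensin members stood at -0.78 with 3 called. Without the HT29 NC library, when NC is a single library, the median of the 13 was -0.21, with 9 below 0. The ring subunits SMC1A and SMC3 then stood at -0.78 and -0.68, and the acetyltransferase ESCO2 at -1.22. The 4 condensin subunits that are no members had a median of -0.62 with all 8 libraries. After length correction it was -0.92 with 3 called lower, with NCAPD2 at -1.15 ± 0.12 (SE; adjusted p = 0.0137, limma).

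In all, 110 further genes of mitosis were measured, and 0 were called in the mean contrast with all 8 libraries, where their median was -0.44. Without the HT29 NC library their median was -0.64, with 90 of the 110 below 0. After length correction 29 were lower, where 3.31% of all tested genes were, and 0 higher. By group, 14 of 33 genes of the spindle, cytokinesis and mitotic kinases were then lower, 8 of 34 of the kinetochore and centromere, 3 of 12 kinesins, and 1 of 14 of the anaphase-promoting complex and its enzymes, UBE2S, which is a share near that of all tested genes. KIFC1, a minus-end kinesin, stood at -1.25 ± 0.15 (SE; adjusted p = 0.0173, limma) and SPAG5, the spindle protein astrin, at -1.22 ± 0.15 (0.0167). Between RPL27 and RPL17 siRNA 7 of the 110 were lower, where 0.675% of all tested genes were, and 1 higher. Of these 7, RACGAP1, the partner of KIF23 in centralspindlin, was lowest, at -0.96 ± 0.11 (0.0316), and the 1 that was higher was KIF5B (0.41), a cargo motor of interphase cells.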

How the data were processed

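Per the labels, libraries were made with an Illumina TruSeq kit from total RNA of HCT116 and HT29 cells, 1 library per line and siRNA. Per the submitters' processing notes, CASAVA 1.8.2 and TopHat2 2.0.9 were used with hg19. The deposited values are RPKM per gene symbol, computed by the authors. The sources used here do not give the counting rule.

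From these values, log2(RPKM + 1) was tested, for genes averaging 1 RPKM or more in the libraries of a fit, with limma 3.58.1 (trend, R 4.3.3), two-sided, with Benjamini-Hochberg adjustment over all tested genes and a threshold of 0.05. Terms were line and siRNA (3 residual degrees of freedom, or 2 with the 6 RPL siRNA libraries alone), or line, any RPL siRNA and their interaction. Length correction removed from each library a natural spline with 5 degrees of freedom on log2 transcript length (GENCODE v29, GRCh38), matched for all 50 genes. Fits were tested on simulated data. Samples were grouped by their labels. Genes and lists were chosen with earlier results of these data known. Values in every library are given for genes past the threshold in the mean contrast, the lowest and highest of each group, the extremes of each ranking, pair and line difference, and CDK1, PLK1, AURKB, CDC20, TOP2A, FOXM1 and MKI67. Genes further named from the fits were chosen after their values were seen.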

Additional observations from a re-analysis of the deposited data

Results flagged for a closer look

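The response to the RPL siRNAs differed between the lines in the interaction test for 10 mitotic genes, with HCT116 minus HT29 differences (log2) of -2.68 in MKI67, -1.93 in KIF14, -1.92 in ECT2, -1.71 in CENPE, -1.69 in SMC2, -1.53 in TOP2A, -1.44 in ASPM, -1.34 in SMC4, -1.32 in INCENP and -0.92 in NUSAP1 (limma, adjusted p of 0.00435 to 0.0485). This is a share near that of all tested genes, of which 16.8% were called in the same direction. After removal of the trend with transcript length none of the 10 passed, with differences of -1.31 in ECT2, -1.21 in MKI67, -1.05 in SMC2 and -0.87 in NUSAP1, the last close to its value before, and of -0.77 to -0.37 in the other 6. The HT29 NC library, which reads long transcripts low, enters each of these values, and its part in them was not tested further.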

How the results depend on the processing

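Limits: each siRNA has 1 library per line, the depth is only estimated, and all HT29 comparisons with NC rest on 1 library that stands apart by transcript length. The median of the 50 genes in the mean contrast stayed between -1.05 and -0.59 in all 19 alternatives. The counts of calls that follow are given without the share of all tested genes called in each setting. They show only how the calls move with the setting. Genes called in the mean contrast numbered 37 with the length trend removed, 23 with HT29 alone, 11 with quantile normalization, 1 with a pseudocount of 0.1 or 5, with robust variances or with no cell line term, and 0 with HCT116 alone, median-centring or no filter, and 0 to 48 with 1 library left out. For RPL9 siRNA against NC they were 25 with the length trend removed, 1 with quantile normalization and 0 to 48 with 1 library left out, for RPL17 siRNA 3 with the length trend removed and 0 to 33, and for RPL27 siRNA 31 and 0 to 48. For RPL27 against RPL17 siRNA they were 24 with a mean of at least 5 RPKM, 16 with quantile normalization, 5 with median-centring, 1 with a pseudocount of 0.1, 0 with all 8 libraries, no filter or no cell line term, and 0 to 22 with 1 library left out. RPL27 against RPL9 siRNA gave 3 with a mean of at least 5 RPKM and 1 with quantile normalization, and RPL9 against RPL17 siRNA 4 with that mean, 3 with quantile normalization and 1 with a pseudocount of 5. The line difference gave 1 with the length trend removed and 0 to 12 with 1 library left out, and the interaction 0 with the length trend removed, 4 with median-centring, 3 with no filter and 6 to 15 with 1 library left out. Falls of at least 0.58 with RPL17 siRNA were seen in 36 genes in HCT116 (15.1% of all tested genes) and 21 in HT29 (20.9%). Falls of at least 1.5 were seen in 7, 0 and 16 genes in HCT116 with RPL9, RPL17 and RPL27 siRNA (3.21%, 2.8% and 2.7%). In HT29 with the same siRNAs they were seen in 7, 3 and 7 (5.13%, 3.52% and 3.71%).

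Signs turned in the mean contrast in some fits. With HT29 alone, the same values as without the HCT116 NC library, ASPM stood at 0.058, CENPE at 0.54, INCENP at 0.40, KIF11 at 0.40, KIF14 at 0.46 and TOP2A at 0.54. With 1 library left out these ranged from -1.38 to 0.058, -1.17 to 0.54, -0.92 to 0.40, -0.90 to 0.40, -1.47 to 0.46 and -0.99 to 0.54. With HCT116 alone ECT2 stood at -0.73, MKI67 at -1.21 and SMC2 at -0.80, and with 1 library left out, at -0.73 to 1.19, -1.21 to 1.47 and -0.80 to 0.89. With the length trend removed they stood at -0.031, -0.58 and -0.23, with median-centring MKI67 at -0.068 and SMC2 at -0.15, and with quantile normalization MKI67 at -0.016 and SMC2 at -0.12. The lowest of each range was without the HT29 NC library and the highest without the HCT116 NC library. The cause was not tested. No paired analysis by replicate number was possible because the labels give none. The term for cell line takes its place, and the fits with no cell line term (no replicate block) are given above. Fits that leave out an NC library give no value for the interaction or the pairs of RPL siRNAs.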
